A study of Mus musculus with 5 samples.

Results

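The genes described here are the Wnt ligands, their receptors, their secreted inhibitors and the main components and feedback targets of the pathway. They were taken from the deposited table by symbol: every numbered Wnt and Fzd gene plus a list of 18 others, which gave 47 genes of the 24594 in the table. A mean normalised read count of at least 10 over the 5 libraries was reached by 36 of the 47, and these 36 were tested. The other 11 were below it, among them 9 of the 19 ligands.

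Wnt proteins are secreted lipid-modified signals. They bind Frizzled receptors together with the co-receptors Lrp5 and Lrp6. Without a Wnt signal, a complex built on Axin and Apc marks β-catenin for destruction, and with one, β-catenin builds up and acts with TCF/LEF factors on target genes. Several of those targets, such as Axin2, Rnf43 and Znrf3, dampen the signal. In the eye the pathway is known for its role at the ciliary margin and, through the ligand Norrin with Fzd4 and Lrp5, in retinal blood vessels.

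Messenger RNA was sequenced from mouse retinal cells in 2 groups. Newborn pups (postnatal day 0) were electroporated in the living animal with a CAG-GFP plasmid (Control, 2 libraries) or with a CAG-Zfp292 plasmid (labelled Zfp292-OE, 3 libraries). CAG is a strong promoter active in most cell types. Retinas were harvested 4 days later and dissociated, and cells positive for GFP were sorted, under the name RPC (retinal progenitor cells) in the labels. The sources used here do not give strain or sex, how cells with the Zfp292 plasmid came to carry GFP, or whether each library stands for its own animals. The p-values therefore measure the spread between these libraries, which may be technical.

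The libraries held 103096224 to 137683716 reads assigned to genes. Zfp292, a nuclear zinc finger protein and the gene on the plasmid, had normalised read counts of 13288 and 14756 in control and of 14631, 13197 and 15534 in the libraries labelled Zfp292-OE. The groups overlapped, and limma gave a fold of 1.03 with a 95% interval of 0.823 to 1.29 (adjusted p = 0.87), so a direction given below follows the labels, with no higher Zfp292 level measured behind it. Across all 16316 tested genes limma called 2836 at an adjusted p below 0.05, 1632 higher and 1204 lower, and scaling the libraries to equal totals turned this into 912 higher and 1985 lower, with the median over all genes at -0.27 in place of -0.06 (log2 fold change). All 12 progenitor markers were detected in every library, with summed values of 249688 and 272162 in control and 347294 to 398127 in the others. Of these 12, 4 rose (Hes1, Hes5, Fgf15 and Ccnd1), 1 fell and 7 did not pass. Rod genes were abundant too, with summed values of 672052 and 804609 in control and 191599 to 198977 in the others, and all 12 fell. All 15 cell cycle genes rose. In a bulk sample a smaller share of cells of one type and less RNA per cell cannot be told apart.

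Most of the Wnt genes did not differ detectably between the groups. Of the 36 tested, 3 fell (Lgr5, Znrf3 and Apc), none rose and 33 did not pass, where rising genes numbered 0 in limma and in edgeR and 2 in DESeq2 (Wnt7b and Ctnnb1). The share called was 8.33%, against 17.4% of all genes tested. In the lower direction alone 7.38% of all genes were called, and 10% in the higher direction. edgeR called 3 of the 36, all lower, where it called 16.1% of all genes (8.28% higher, 7.78% lower), and DESeq2 called 5, where it called 25.5% (14.3% higher, 11.3% lower). An unadjusted p below 0.05 was found for 8 of the 36, against 32.8% of all genes tested, and the groups did not overlap for 14 of the 36, against 49.9% of all. The median log2 fold change of the 36 was -0.20, against -0.06 over all genes tested, and it was 0.04 over the 28 with a mean of at least 50. The plot of fold changes by role shows the 3 called genes beside the wide intervals of the genes with few reads.

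**Figure D1:**
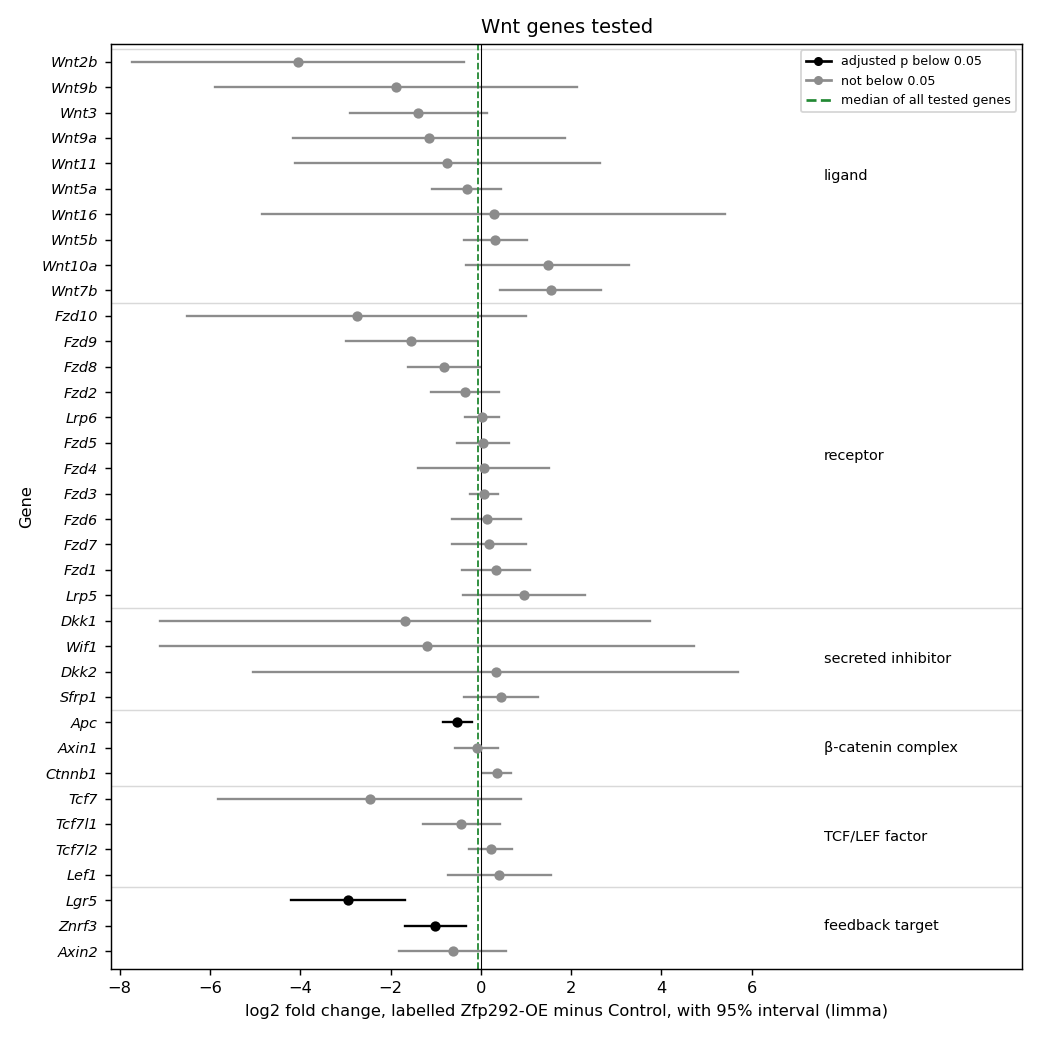
Log2 fold change of each tested Wnt gene (libraries labelled Zfp292-OE minus control, x axis) with its 95% interval from limma, grouped by role; black marks an adjusted p below 0.05 and the dashed line the median of all tested genes. Lgr5, Znrf3 and Apc lie to the left with intervals that exclude 0, and 28 of the 36 intervals include it.

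The largest difference among the called genes was in Lgr5, a receptor for R-spondins that is also a target of the pathway and is known in the retina from amacrine interneurons. The gene lies on chromosome 10, 115450314 to 115587780 (GRCm38, Entrez 14160). Lgr5 showed 1840 and 1288 normalised reads in control and 105, 174 and 438 in the libraries labelled Zfp292-OE. Every control library was above every other library, and library 3 was the highest of the lower group. The control mean of 1564 ± 390 (SD, n = 2) rests on 3360 reads and the other mean, 239 ± 176 (SD, n = 3), on 696. The change was -2.94 on the log2 scale (SE 0.56, 95% interval -4.20 to -1.68) with an adjusted p of 0.0078 in limma, 0.012 in edgeR and 3.0e-05 in DESeq2. The call was lost without control library 1 (adjusted p = 0.15) or control library 2 (0.16), fits in which limma called 1 gene of the whole table. It held without each library labelled Zfp292-OE, where the adjusted p was 0.0014 to 0.018.

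Marker genes of other cells moved between the same groups. Of 10 bipolar genes 7 fell, with a median log2 fold change of -3.68, though their summed values overlapped at 135120 and 184310 in control and 121100 to 207478 in the others, where Otx2, which rods and progenitors also express, made up most of the sum. Of 11 amacrine and horizontal genes 1 rose and 2 fell, and their summed values were 51723 and 53675 in control and 33066 to 43794 in the others. Of 12 Müller glia genes 1 rose and 7 fell, with summed values of 717895 and 871774 against 367709 to 456660. The part of these cells in the lower Lgr5 was not tested. A non-coding gene, A930009A15Rik, overlaps the span of Lgr5 and had values of 562 and 524 in control and 245, 544 and 303 in the others (adjusted p = 0.33 in limma), and reads of overlapping genes may not be separable since the counting method is not given.

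Znrf3, a membrane ubiquitin ligase that removes Frizzled receptors from the cell surface, was lower by a factor of 2.01. Its values were 1064 and 1208 in control and 590, 502 and 608 in the libraries labelled Zfp292-OE (chromosome 11, 5276329 to 5444847). The groups were well apart, with means of 1136 ± 102 (SD, n = 2) and 567 ± 57 (SD, n = 3). Its change of -1.0 on the log2 scale (SE 0.30) passed narrowly in limma (adjusted p = 0.046), and also in edgeR (0.031) and DESeq2 (0.0053). It did not pass without any 1 of the 5 libraries (adjusted p = 0.063 to 0.22), after quantile normalization (0.12) or with no filter on low values (0.063).

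Of the other feedback targets, Axin2, the scaffold protein often read as a gauge of the pathway, did not pass. Its values were 215 and 509 in control and 289, 173 and 198 in the libraries labelled Zfp292-OE, so the groups overlapped and the control libraries differed from each other more than the groups did. The log2 fold change was -0.62 (95% interval -1.81 to 0.57, adjusted p = 0.45 in limma). This interval reaches from a fold of 0.285 to one of 1.48 and so holds changes as large as that of Znrf3. Rnf43, the close relative of Znrf3, had 7 reads in all, each in library 1 labelled Zfp292-OE, and was not tested. Thus 2 of the 3 feedback targets tested among the 47 genes were called lower, where 7.38% of all genes were. The call of Znrf3 held under 7 of the 15 alternatives.

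**Figure D2:**
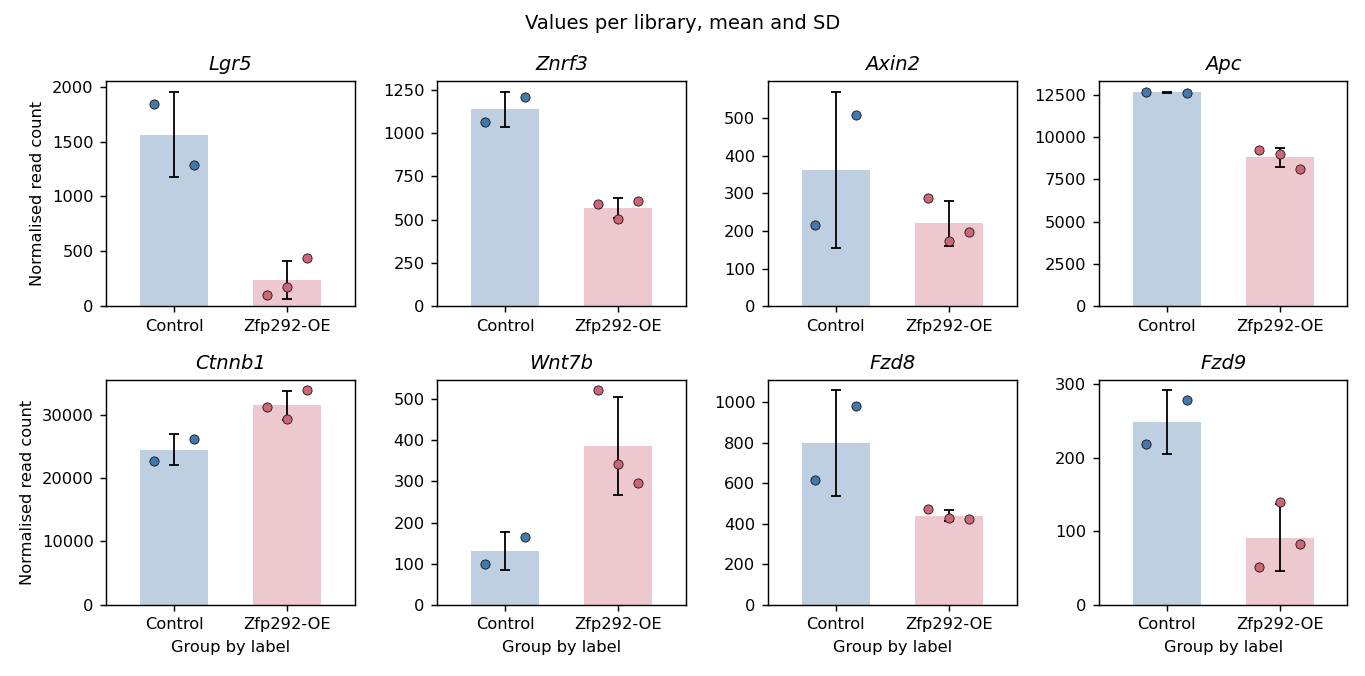
Normalised read counts (y axes, from 0) of 8 Wnt genes in the control libraries (blue) and the libraries labelled Zfp292-OE (red); points are libraries, bars means and whiskers SDs. The points of the groups are apart for Lgr5, Znrf3, Apc, Ctnnb1, Wnt7b, Fzd8 and Fzd9 and overlap for Axin2. Groups were apart for 14 of the 36 tested Wnt genes, against 49.9% of all genes tested.

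Apc and Ctnnb1, which encodes β-catenin, lay in opposite directions. Apc, the scaffold of the destruction complex (chromosome 18, 34220297 to 34322190), had values of 12667 and 12607 in control and of 9238, 9010 and 8136 in the libraries labelled Zfp292-OE. The control values were close to each other and above all 3 others. The control mean of 12637 ± 42.6 (SD, n = 2) was 1.44 times the other mean, 8795 ± 582 (SD, n = 3). On the log2 scale Apc fell by 0.53 (SE 0.14) with an adjusted p of 0.034 in limma, 0.034 in edgeR and 0.0022 in DESeq2. The call was lost in each fit without 1 of the 5 libraries (adjusted p = 0.066 to 0.16). Gm10548, which overlaps the span of Apc, had at most 62.1 in any library.

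Ctnnb1 (chromosome 9, 120933400 to 120960507) was the most abundant of the Wnt genes per length, at a mean of 5523 normalised reads per kilobase of merged exon. Its values were 22728 and 26214 in control and 31266, 29312 and 33859 in the libraries labelled Zfp292-OE. All 3 of the latter were above both controls. The log2 fold change of 0.36 (95% interval 0.05 to 0.68) did not pass in limma (adjusted p = 0.10) or edgeR (0.14), passed in DESeq2 (0.048), and shrank to 0.15 with equal totals and 0.04 after quantile normalization. Axin1, the scaffold that is not a feedback target, had 1880 and 2231 in control and 1894, 2006 and 1885 in the others. Its groups overlapped, with a log2 fold change of -0.09 that changed sign after quantile normalization (0.01) and without control library 2 (0.04).

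None of the 12 receptors passed in limma, edgeR or DESeq2, while 2, 1 and 2 had an unadjusted p below 0.05. Per kilobase of merged exon, Fzd5 and Fzd3 led the 10 Frizzled genes at means of 1151 and 1079 normalised reads. Their ranges over the libraries, 797 to 1515 and 1041 to 1195, overlapped, and both were above Fzd2 in every library (131 to 248). Then came Fzd2 at 190, Fzd7 at 150, Fzd1 at 148, Fzd6 at 125, Fzd8 at 97.6, Fzd9 at 67.2, Fzd4 at 53.2 and Fzd10 at 7.05. Each neighbouring pair of these overlapped in range except Fzd4 and Fzd10, where the highest Fzd10 value was below the lowest of Fzd4 (17.3 and 20.6). The order differed between the groups: in control Fzd8, at a mean of 133, was above Fzd1 (128) and Fzd6 (118), and in the libraries labelled Zfp292-OE Fzd1 (161) was above Fzd7 (159) and Fzd4 (49.3) above Fzd9 (39.8). Fzd5 is known as a receptor of retinal progenitors, and Fzd3 for the guidance of axons.

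The abundant receptors give the narrowest limits. Fzd3 had 13330 and 13370 in control and 13721, 13336 and 15307 in the libraries labelled Zfp292-OE, values that overlapped between the groups. Its fold was 1.06 with a 95% interval of 0.85 to 1.31. For the co-receptor Lrp6 the fold was 1.02 (0.789 to 1.33) and for Fzd5 it was 1.03 (0.694 to 1.54), which are the tightest limits that these data set for a receptor. With equal totals, a scaling that lowers the median of all genes to -0.27, all 3 were below 0 on the log2 scale and above that median.

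Fzd8 and Fzd9 were the receptors with an unadjusted p below 0.05 in limma. Fzd8 had 614 and 981 in control and 471, 426 and 423 in the libraries labelled Zfp292-OE, with a log2 fold change of -0.82 (95% interval -1.62 to -0.02, adjusted p = 0.14). Fzd9 had 218 and 279 in control and 51.3, 140 and 82.7 in the others, with a log2 fold change of -1.54 (adjusted p = 0.13). Every control value of both genes was above every other value. Neither passed under any of the 15 alternatives (lowest adjusted p 0.077 and 0.091).

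Lrp5, the other co-receptor, was at 98.1 and 117 in control and at 122, 223 and 331 in the libraries labelled Zfp292-OE. The groups did not overlap, but the lowest of the 3 was only just above control (log2 fold change 0.95, adjusted p = 0.31 in limma). Fzd4, the Norrin receptor, differed between the control libraries (657 and 139) more than between the groups, and its span overlaps that of Tmem135, which is more abundant. Fzd4 and Lrp5 are best known in blood vessels. Of 14 endothelial genes 3 were below 10 in every library, among them Cdh5, at 0 in every library but 1, where it was 3.76. Of the 11 tested 2 rose and 0 fell, with log2 fold changes of -4.94 to 3.35, and 5 had an unadjusted p below 0.05 in limma. The summed values of the list were 43631 and 52448 in control and 39915 to 48561 in the others. Most of the sum came from Kdr, which progenitors also express. Of 7 tested pericyte genes 4 fell, with summed values of 1669 and 3303 against 670 to 903. Their part in the receptor values was not tested. The remaining receptors, Fzd1, Fzd2, Fzd6, Fzd7 and Fzd10, had log2 fold changes of -2.75 to 0.33 and adjusted p of 0.29 to 0.83.

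**Figure D3:**
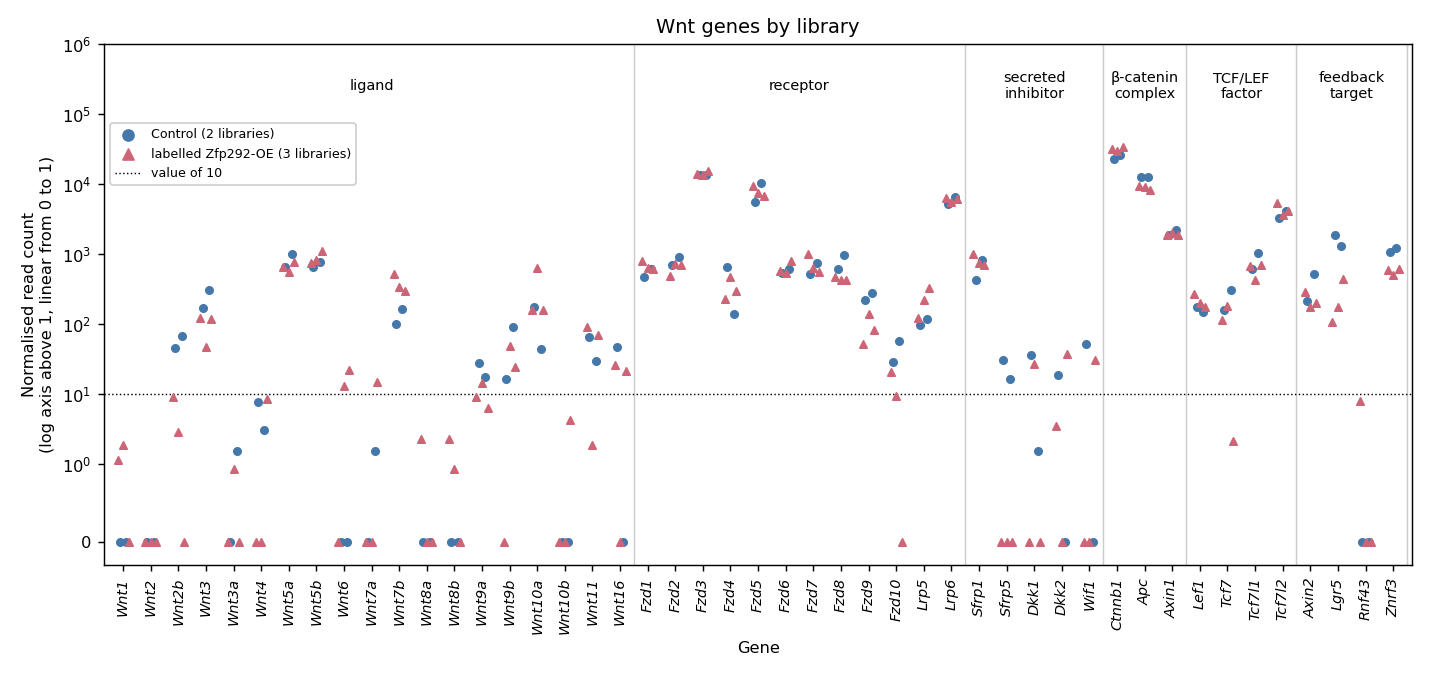
Normalised read count (y axis, logarithmic above 1 and linear below) of all 47 Wnt genes in the 2 control libraries (circles) and the 3 libraries labelled Zfp292-OE (triangles), by role; the dotted line marks a value of 10. Of the 19 ligands 9 average below the line, while Fzd3, Fzd5, Lrp6, Ctnnb1 and Apc lie at the top, with Lrp6 at 5221 or more in every library.

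Ligands were scarce. Of 19, 10 were tested, and none passed in limma or edgeR while DESeq2 called 1 (Wnt7b), with 2, 1 and 2 at an unadjusted p below 0.05. Wnt5b and Wnt5a, ligands best known for signalling without β-catenin, had the most reads. Wnt5b had 650 and 768 in control and 754, 813 and 1118 in the libraries labelled Zfp292-OE, which overlapped (fold 1.25, 95% interval 0.769 to 2.02). Wnt5a had 650 and 1009 in control and 658, 545 and 765 in the others (log2 fold change -0.32, and 0.00 without control library 2). Per kilobase of merged exon Wnt5b was above Wnt5a, with ranges of 245 to 421 and 69.7 to 129. The span of Wnt5b overlaps that of Fbxl14, whose values were 829 to 1406, so reads of these genes may not be separable.

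Wnt7b, a ligand that activates β-catenin in vessels of the eye and brain, came closest to a rise. Its values were 99.2 and 164 in control and 521, 342 and 296 in the libraries labelled Zfp292-OE. Every one of the latter was above both controls, with means of 132 ± 46 (SD, n = 2) and 387 ± 119 (SD, n = 3). On the log2 scale they differed by 1.55 (SE 0.50, 95% interval 0.42 to 2.67) and the adjusted p was 0.061 in limma, 0.080 in edgeR and 0.021 in DESeq2. Over the 15 alternatives the adjusted p ran from 0.021 to 0.24, and it passed in DESeq2 and after quantile normalization (0.032). A gene that overlaps its span, AU022754, had at most 110 in any library.

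Wnt2b, known from the ciliary margin, lay in the other direction at low depth. It had 45.8 and 66.2 in control, or 128 reads in all, and 9.13, 2.82 and 0 in the libraries labelled Zfp292-OE, or 11 reads in all. The groups were apart, yet the log2 fold change of -4.05 has a 95% interval from -7.73 to -0.37 and did not pass (adjusted p = 0.12 in limma, 0.080 to 0.33 over 14 alternatives). Its span overlaps that of St7l, whose values of 6057 to 8862 were far higher. Of 10 genes of the ciliary margin list 0 rose and 1 fell in limma (Cdon), with summed values of 20416 and 33228 in control and 12327 to 16860 in the others, and their part in the Wnt2b values was not tested.

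The other tested ligands varied between libraries of the same group, though every control value of Wnt3 and of Wnt9a was above every other value. Wnt3 had 170 and 307 in control and 120, 46.1 and 119 in the libraries labelled Zfp292-OE (log2 fold change -1.38, adjusted p = 0.19), and its span overlaps that of Wnt9b, so reads of this pair may be shared. Wnt10a stood at 619 in library 2 labelled Zfp292-OE and at 43.9 to 175 in the other 4. Wnt9a, Wnt9b, Wnt11 and Wnt16 had log2 fold changes of -1.88 to 0.28 with intervals that all include 0. Below the filter, Wnt2 had no read in any library, Wnt1, Wnt3a, Wnt8a, Wnt8b and Wnt10b had 2 to 4 reads in all, and Wnt7a and Wnt4 had 16 and 19. Wnt6 had 35 reads, all in libraries 2 and 3 labelled Zfp292-OE.

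The secreted inhibitors among these genes were low apart from Sfrp1, and none of the 4 tested passed in limma or edgeR. In DESeq2 Sfrp1 and Wif1 did not pass, and Dkk1 and Dkk2 were given no adjusted p. An unadjusted p below 0.05 was found for 0 of them in each. Sfrp1, which binds Wnt proteins outside the cell, had 425 and 813 in control and 990, 744 and 701 in the libraries labelled Zfp292-OE. The groups overlapped, and the fold was 1.36 (95% interval 0.769 to 2.42). Sfrp5, a related binder of Wnt proteins, had 30.5 and 16.2 in control, 49 reads in all, and no read in the other 3 libraries. Against a floor of 3 reads over that group it was at least 22.4-fold lower, a limit that covers counting error only. With a mean of 9.34 it fell short of the filter, and with no filter its adjusted p was 0.021 in limma. Dkk1, Dkk2 and Wif1 were at 0 in 2, 2 and 3 libraries and reached 36.0, 37.7 and 51.2 in others, with no pattern by group and intervals of over 10 log2 units each.

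None of the 4 TCF/LEF factors, the DNA-binding partners of β-catenin, passed in limma, edgeR or DESeq2, and 0 had an unadjusted p below 0.05 in each. Tcf7l2 had the most reads, at 3297 and 4142 in control and 5394, 3655 and 4043 in the libraries labelled Zfp292-OE. These values overlapped, and the fold was 1.16 (95% interval 0.835 to 1.62). Tcf7l1, mainly a repressor, had 603 and 1016 in control and 670, 425 and 687 in the others. Lef1 had 172 and 148 in control and 270, 201 and 176 in the others, which did not overlap by a small margin (log2 fold change 0.41, adjusted p = 0.62). Tcf7 had 157 and 309 in control and 115, 180 and 2.09 in the others, so its log2 fold change of -2.46 was -0.61 without library 3 labelled Zfp292-OE. Its span overlaps that of the abundant Skp1.

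**Figure D4:**
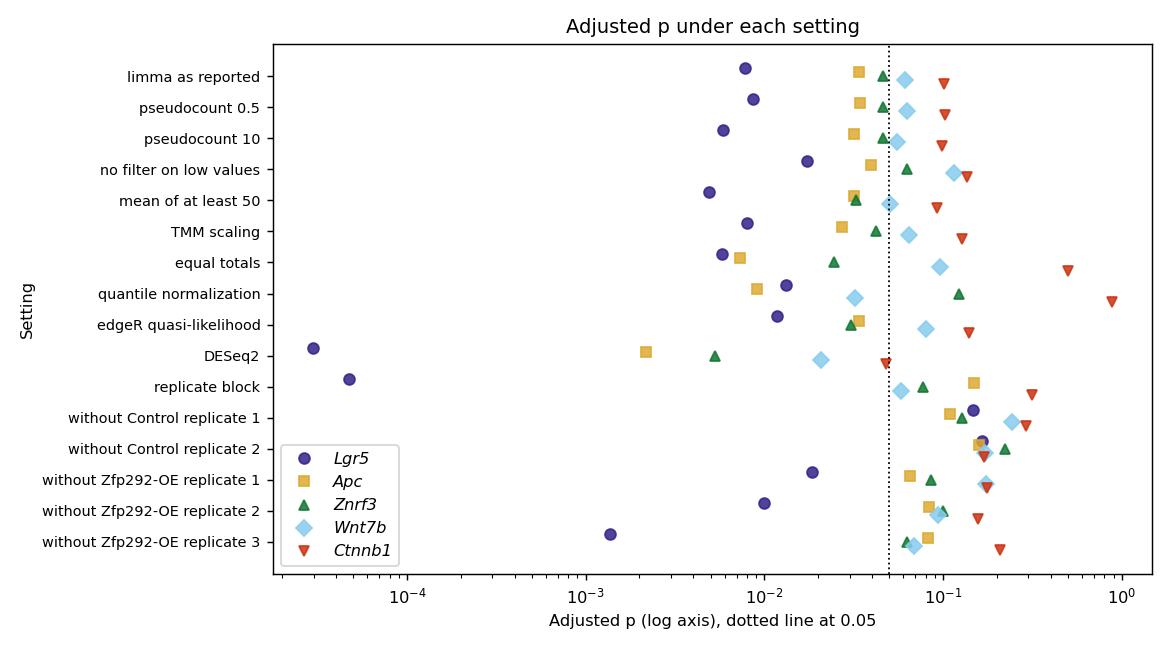
Adjusted p (x axis, logarithmic, dotted line at 0.05) of Lgr5, Apc, Znrf3, Wnt7b and Ctnnb1 under limma as reported and under each of the 15 alternatives (y axis). Lgr5 lies left of the line under 13 of them, Apc under 9, Znrf3 under 7, Wnt7b under 2 and Ctnnb1 under 1.

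Further genes of the pathway, 86 in 7 overlapping lists, were read in the same fit. Of the 78 tested, 6 rose, 11 fell and 61 did not pass, a share of 21.8% called against 17.4% of all genes. With equal totals the split was 3 higher and 15 lower. The median log2 fold change was -0.23. The count was 0 without control library 1 and 0 without control library 2, and 10 without library 1 labelled Zfp292-OE and 11 without library 2. All 17 calls were lost without either control library, and those of Frzb, Porcn, Apc2, Prickle1, Celsr3, Ccnd1, Id2 and Cd44 held under the other 13 alternatives. The lists and their called genes stand in the plot of other pathway genes.

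Among 13 other inhibitors 1 rose and 3 fell, a share of 30.8% called against 17.4% of all genes. Frzb, a secreted binder of Wnt proteins, had 2243 and 2102 in control and 572, 299 and 314 in the libraries labelled Zfp292-OE. The control values were all far above the others, and the log2 fold change was -2.52 (SE 0.36) with an adjusted p of 0.0018 in limma. Sfrp2, a further member of that family, went the other way, with 1432 and 1985 in control and 3458, 3744 and 2587 in the others (log2 fold change 0.93, adjusted p = 0.028). Sfrp2 did not pass with equal totals (adjusted p = 0.072), nor without library 1 (0.085) or 2 (0.076) labelled Zfp292-OE or without control library 1 (0.19) or 2 (0.14). Apcdd1, a membrane inhibitor, fell by 1.25 on the log2 scale and Sostdc1, a secreted one, by 0.99. Each passed under 8 of the 15 alternatives. Apcdd1 lost the call without any 1 of the 5 libraries (adjusted p = 0.066 to 0.31 in limma), and Sostdc1 lost it without each of them but library 1 labelled Zfp292-OE. Porcn, the enzyme that attaches the lipid to Wnt proteins, was the 1 gene of 7 for secretion and R-spondins to fall, from 5370 and 5423 in control to 2356, 2255 and 3035 (log2 fold change -1.09, adjusted p = 0.0059). In that list 14.3% were called, against 17.4% of all genes.

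In the cytoplasmic list 1 of 17 rose and 2 fell, a share of 17.6% called, near the 17.4% of all genes. Apc2, the neuronal relative of Apc, had 3780 and 4285 in control and 1152, 1813 and 1209 in the libraries labelled Zfp292-OE. It fell by 1.56 on the log2 scale (adjusted p = 0.0034 in limma), and, as for Apc, no value of the groups overlapped. Ctnnbip1, which keeps β-catenin from TCF factors, rose by 0.57 (adjusted p = 0.038 in limma). It passed in 6 of 15 alternatives, and was at 0.35 with equal totals (adjusted p = 0.16), 0.30 after quantile normalization (0.28) and 0.52 in edgeR (0.061). Cxxc4, an inhibitor that binds Dishevelled, fell by 0.58 (adjusted p = 0.048) and lost the call without any 1 of the 5 libraries. Of 13 nuclear co-factors 0 rose in limma, edgeR or DESeq2 (0 at an unadjusted p below 0.05 in that direction). In limma 1 fell, the co-repressor Tle2 (log2 fold change -1.71, adjusted p = 0.042), a share of 7.69% against 7.38% of all genes called lower. Tle2 did not pass without library 1 or 3 labelled Zfp292-OE (0.11 and 0.082), and it passed under 9 of the 15 alternatives. None of 7 genes of the Norrin branch and other receptors passed in limma, edgeR or DESeq2, with 0 at an unadjusted p below 0.05, and the Norrin gene Ndp had 6472 and 5705 in control and 6734, 4544 and 4918 in the others.

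Genes of planar cell polarity, the branch of the pathway that orients cells without β-catenin, included 3 that fell of 12. This is a share of 25% called, against 17.4% of all genes (7.38% lower). Prickle1 had 1029 and 1404 in control and 399, 498 and 368 in the libraries labelled Zfp292-OE (log2 fold change -1.52, adjusted p = 0.015). Celsr3, an atypical cadherin of axon tracts, fell by 1.43 and Prickle2 by 1.10, the latter not without library 2 labelled Zfp292-OE (adjusted p = 0.058 in limma). The control values of all 3 were above every other value. In limma 0 genes of this list rose, also 0 in edgeR and 1 in DESeq2, with 1 at an unadjusted p below 0.05.

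Genes known as targets of β-catenin in other tissues moved both ways: of 13 tested, 4 rose and 2 fell. This is a share of 46.2% called, against 17.4% of all genes (10% higher, 7.38% lower). Ccnd1, a G1 cyclin with many other inputs, had 19732 and 18547 in control and 54303, 81971 and 47311 in the libraries labelled Zfp292-OE. It rose by 1.64 on the log2 scale (adjusted p = 0.0011 in limma), beside the 15 cell cycle genes, all of which rose. Id2, an inhibitor of helix-loop-helix factors, rose by 1.29, the adhesion receptor Cd44 by 1.07 and the growth factor Fgf9 by 0.72. Fgf9 was at 0.41 after quantile normalization (adjusted p = 0.12) and did not pass without library 1 labelled Zfp292-OE (0.055). It passed under 10 of the 15 alternatives. The genes that fell were Apcdd1 and Ccnd2, a further G1 cyclin, named here after its values were seen. Ccnd2 had 574 and 933 in control and 160, 389 and 231 in the libraries labelled Zfp292-OE, so the control values were above all others. It fell by 1.59 on the log2 scale (adjusted p = 0.049 in limma), and did not pass without library 1 (0.11) or 3 (0.083) labelled Zfp292-OE. Nor did Ccnd2 pass with no filter on low values (0.084), a pseudocount of 0.5 (0.051) or quantile normalization (0.11). The feedback inhibitor Nkd1 had 8090 and 7496 in control and 6293, 5905 and 7659 in the others, with overlap, and did not pass (adjusted p = 0.35). Nkd2, of the list of other inhibitors, had 318 and 273 in control and 59.3, 3.76 and 78.5 in the others, without overlap. Its log2 fold change of -3.38 did not pass in limma (adjusted p = 0.073) or edgeR (0.11) but passed in DESeq2 (0.047). The part of the cell cycle genes in these values was not tested.

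**Figure D5:**
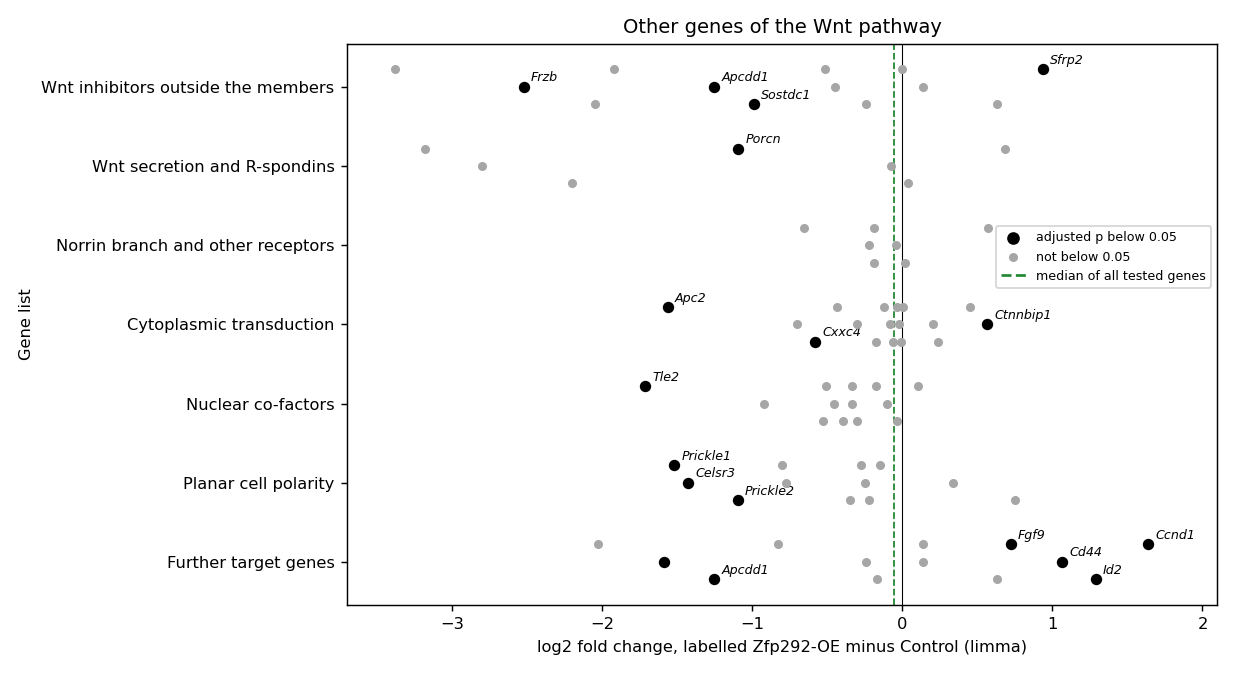
Log2 fold change (x axis, libraries labelled Zfp292-OE minus control, limma) of the tested genes of 7 further Wnt lists (y axis); each point is a gene, black points have an adjusted p below 0.05 and the dashed line is the median of all tested genes. Among the labelled genes Frzb (-2.52) and Tle2 (-1.71) lie furthest left and Ccnd1 (1.64) and Id2 (1.29) furthest right. The unlabelled black point of the target list at -1.59 is Ccnd2.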

How the data were processed

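The deposited table holds a normalised signal per gene for 5 libraries: read counts divided by 1 factor per library, by the authors, as the values show, since 100% of them are whole multiples of the value of 1 read in their library, within 1e-06 of a read. The builds GRCm38 and mm10 are named per the submitters' processing notes. The aligner, counter, annotation, strand setting and scaling method are not stated in the sources used here. After a filter at a mean of 10, log2(value + 1) was compared between the groups by limma 3.58.1 with its trend option, in R 4.3.3. A positive change means more in the libraries labelled Zfp292-OE. P-values were adjusted over every tested gene (Benjamini-Hochberg), and 0.05 was the limit for a call. A log2 fold change is thus a difference of mean logs. For genes that are low or uneven between libraries it can be smaller or larger than the ratio of the means, and for Wnt11, Wnt16, Fzd4 and Fzd5 it has the other direction. The count models edgeR 4.0.16 (quasi-likelihood) and DESeq2 1.42.0 were run on the recovered whole reads. The scripts were tested on simulated data. Gene spans come from RefSeq (GRCm38.p6, 47 of 47 matched by Entrez identifier) and merged exon lengths from GENCODE M21. The genes and lists were chosen with earlier results of these data known. Among the tested Wnt genes, values in every library are given for each that passed. They are also given for each with an unadjusted p below 0.05 and for the most abundant of each role. Of the other lists, up to 4 called genes with the smallest p are named, some by their log2 fold change alone. Further genes were chosen after their values were seen. Alternatives were other pseudocounts (0.5, 10), filters (none, 50) and scalings, the count models, a block for the replicate number, and the omission of 1 library at a time. The values of 1 marker gene are not reported here.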

Additional observations from a re-analysis of the deposited data

How the results depend on the processing

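Under the 15 alternatives, 467 of 526 values of the tested Wnt genes kept their direction and their side of the threshold. A further 16 values of 3 genes (Lgr5, Znrf3 and Apc) no longer passed, 3 values of 2 genes (Wnt7b and Ctnnb1) newly passed, and 40 values of 12 genes changed sign, none of them past the threshold. Of 255 values of the other named pathway genes and Zfp292, 184 kept both and 66 no longer passed. The cause of these changes was not tested. The count of called Wnt genes, 3 in limma as reported, was 5 in DESeq2, and with no filter on low values it was 3 with Sfrp5 in place of Znrf3. It was 0 to 1 when 1 library was left out, the count of other pathway genes (17) was then 0 to 14, and that of all genes (2836) was 1 to 2352, with 1 without either control library and 1657 without library 1 labelled Zfp292-OE. With no filter the other pathway genes called were 11. The median log2 fold change of the Wnt genes was -0.16 with a pseudocount of 10, 0.042 with no filter and with a mean of at least 50, -0.23 with TMM, -0.42 with equal totals, -0.086 after quantile normalization, -0.33 in edgeR, -0.30 in DESeq2 and -0.43 to -0.10 with 1 library left out. A lone control library is assumed there to vary like the other group.

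The replicate block left 1 Wnt gene (of 2498 genes in all) called (Lgr5) and a median of -0.43. With it the log2 fold changes of Wnt16 (-0.41), Fzd6 (-0.045), Dkk2 (-1.07) and Zfp292 (-0.011) changed sign. No control library is numbered 3, so library 3 labelled Zfp292-OE does not enter the block's estimates. The block's log2 fold changes and median therefore equal those of the fit without that library, and 1 residual degree of freedom was left. The labels name no shared source for same-numbered libraries, whose deviations correlated at -0.04 and -0.03 across genes. With 2 control libraries the deviations of the controls mirror each other, so these correlations cannot show whether a source was shared.

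Changes of sign, as log2 fold changes, came with equal totals for Fzd3 (-0.14), Fzd4 (-0.15), Fzd5 (-0.17), Fzd6 (-0.088), Fzd7 (-0.031), Lrp6 (-0.18) and Zfp292 (-0.17). After quantile normalization they came for Wnt11 (0.029), Fzd3 (-0.17), Fzd5 (-0.11), Lrp6 (-0.066), Axin1 (0.011) and Zfp292 (-0.21). In edgeR they were Wnt11 (0.19), Wnt16 (-0.60), Fzd4 (-0.29), Fzd5 (-0.042) and Lrp6 (-0.0016), in DESeq2 Wnt11 (0.22), Wnt16 (-0.58), Fzd4 (-0.26) and Fzd5 (-0.012), and with a pseudocount of 10 Wnt16 (-0.092). With 1 library left out, the log2 fold changes that changed sign ran from -0.63 to 0.00077 for Wnt5a, -1.64 to 0.87 for Wnt11, -2.51 to 3.07 for Wnt16, -1.05 to 1.19 for Fzd4, -0.41 to 0.51 for Fzd5, -0.045 to 0.24 for Fzd6, -0.075 to 0.45 for Fzd7, -0.13 to 0.20 for Lrp6, -0.019 to 0.92 for Sfrp1, -1.81 to 2.47 for Dkk2, -0.21 to 0.036 for Axin1 and -0.033 to 0.12 for Zfp292.

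On simulated data with the same group sizes limma recovered 37.2% of genes changed 2-fold and 64.2% of those changed 4-fold, with 10% false calls, so a gene that did not pass is not shown to be equal. Genes with few reads have the widest intervals. The simulated rate of false calls, 10%, was above the limit of 0.05 used for a call. Calls just under that limit, such as Znrf3 (adjusted p = 0.046 in limma) and Apc (0.034), may thus be less certain than their adjusted p states. The share of genes changed in the simulated data was smaller than the 17.4% of all genes called here. Whether the simulated recovery and rate of false calls hold for these data was not tested.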
